A study of Mus musculus with 18 samples.

Results

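The lipase and cholesterol transport genes examined here were Lipc, Pltp, Apoe, Osbpl3, Abca1 and Abcg1, 6 of the 55491 genes in the count table. They were chosen by name. Lipc, Apoe, Pltp and Osbpl3 were picked because their levels differed between treatments in these same libraries, so their treatment differences are given as values with errors and without a test. Abca1 and Abcg1 completed the set and are treated in the same way. All 6 genes passed the filter on low counts in every comparison.

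The 18 libraries were made from poly(A) RNA of B cells from female BALB/cJ mice that had all received i.p. injections of 20 µg ovalbumin (OVA) with 1 mg alum on days 0 and 14, a sensitization used to model egg allergy. No library came from unsensitized mice. On days 28 and 42 the mice were given PBS (100 µL), soluble OVA (100 µg) or OVA-carrying nanoparticles (OVA NPs, 2.5 mg) by the i.v. route, and cells were taken on day 44 at an age of 10 to 12 weeks, before any oral food challenge. B cells of the spleen and of the Peyer's patches, which are lymphoid structures along the small intestine, were enriched magnetically by removing other cells, and each of the 6 combinations of tissue and treatment had 3 libraries labelled as biological replicates. The label does not say whether a replicate was 1 mouse or a pool, or whether both tissues came from the same mice, and p-values cover only the spread between these libraries.

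Cells move cholesterol between the bloodstream, their membranes and their stores, and the 6 genes belong to different steps of that traffic. Lipc encodes hepatic lipase, a secreted enzyme that hydrolyzes lipids of circulating lipoproteins and is best known from liver. Pltp encodes phospholipid transfer protein, which moves phospholipids between lipoproteins, and Apoe encodes apolipoprotein E, a lipoprotein component that accepts cholesterol leaving cells and is recognized by lipoprotein receptors on cells. Osbpl3 encodes a cytoplasmic oxysterol-binding protein relative that works at contacts between membranes. Abca1 and Abcg1 encode pumps that export cholesterol and phospholipid to lipoproteins, and both are classical targets of the liver X receptors (LXRs), nuclear receptors that sense oxysterols. When sterol runs short, the opposite program is set by SREBP-2, a membrane-bound transcription factor that raises lipoprotein uptake and cholesterol synthesis.

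The libraries held between 14177253 and 30052297 counts, and the 3 counts taken as a detection floor corresponded to 0.105 to 0.220 CPM. CPM here are counts scaled to a common library size after TMM normalization, and all levels below are CPM unless stated as per kilobase. The 6 B cell markers examined, among them Ms4a1, Cd79a and Pax5, summed to between 7360 and 8788 CPM in spleen libraries and between 5429 and 6815 CPM in Peyer's patch libraries. The 6 T cell markers summed to no more than 29.0 CPM in any library. Epithelial markers (Epcam, Krt8, Krt18, Krt20 and Vil1) summed to 7.10 to 9.54 CPM in spleen but to 150 to 679 CPM in Peyer's patches, and mitochondrial transcripts took 2.82% to 3.41% of counts in spleen and 4.97% to 9.80% in Peyer's patches. Within Peyer's patches the mitochondrial share was 5.41% to 7.67% with PBS, 4.97% to 6.02% with soluble OVA and 9.08% to 9.80% with OVA NPs. Germinal center B cell markers (8 genes including S1pr2 and Mef2b) differed among groups, with sums of 106 to 174 CPM in spleens of PBS-treated mice, 370.0 to 531 CPM after soluble OVA and 358 to 387 CPM after OVA NPs. The same sum in Peyer's patches was 1116 to 1339 CPM with PBS, 2027 to 2088 CPM with soluble OVA and 834 to 1283 CPM with OVA NPs. In bulk RNA, fewer cells of a type and less RNA per cell cannot be told apart.

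In the annotation of the mouse genome build GRCm38 (GENCODE M21), all 6 genes were protein coding and lay on 6 different chromosomes. Lipc spans chr9:70798128-70952226, Pltp chr2:164839518-164857711, Apoe chr7:19696109-19699188, Osbpl3 chr6:50293330-50456201 and Abca1 chr4:53030787-53159895, all on the minus strand, and Abcg1 spans chr17:31057675-31117988 on the plus strand. Their merged exons measured 2150 bases for Lipc, 2562 for Pltp, 2138 for Apoe, 9021 for Osbpl3, 10363 for Abca1 and 7298 for Abcg1. Because longer transcripts collect more counts, levels of different genes are compared only per kilobase of merged exon.

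Promoter sequence from RefSeq (GRCm38.p6) matched 5 of the 6 genes. The 250 bases before the RefSeq start are shown for Lipc and Osbpl3, whose levels moved together across the libraries, and for Abca1, whose level moved the opposite way. RefSeq starts can differ from the GENCODE gene ends given above, so the windows of Osbpl3 and Lipc reach slightly into those spans. Lipc had 2 windows in the table and Apoe 3, and the one nearest the GENCODE start was used. All 3 sequences are read 5′ to 3′ on the minus strand, and capitals mark matches to the motifs searched.
Lipc, chr9:70952222-70952471: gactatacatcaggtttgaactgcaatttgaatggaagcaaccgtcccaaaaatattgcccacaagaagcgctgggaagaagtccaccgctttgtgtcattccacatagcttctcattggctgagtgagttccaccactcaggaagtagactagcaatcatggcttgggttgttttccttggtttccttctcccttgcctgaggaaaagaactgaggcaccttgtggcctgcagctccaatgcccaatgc
Osbpl3, chr6:50456171-50456420: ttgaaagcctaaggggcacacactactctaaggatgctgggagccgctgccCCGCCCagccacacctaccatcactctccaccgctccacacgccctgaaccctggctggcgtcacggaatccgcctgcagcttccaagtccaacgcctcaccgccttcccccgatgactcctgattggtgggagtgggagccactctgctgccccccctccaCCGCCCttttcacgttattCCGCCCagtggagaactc
Abca1, chr4:53159896-53160145: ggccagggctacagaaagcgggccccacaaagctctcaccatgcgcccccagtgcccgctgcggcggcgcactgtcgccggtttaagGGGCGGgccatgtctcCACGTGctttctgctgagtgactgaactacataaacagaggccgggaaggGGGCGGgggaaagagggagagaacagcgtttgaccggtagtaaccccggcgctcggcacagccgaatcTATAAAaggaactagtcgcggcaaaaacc
The motifs were AGGTCA (the core recognized by many nuclear receptors), GGGCGG (the GC box), CACGTG (the E-box), GAGGAAGT (an ETS family core) and TATAAA (the TATA box), each searched on both strands. The Lipc window, with a GC content of 48.4%, held none of them. The Osbpl3 window (62.8% GC) held the GC box 3 times, all on the reverse strand, and the Abca1 window (61.6% GC) held the GC box 2 times, the E-box 1 time and the TATA box 1 time, the last beginning 29 bases before the start. Of the windows not shown, that of Pltp held 1 GC box and that of Apoe held no match. Among all 32851 windows of 250 bases in the same table, 32.7% held a GC box, 14.0% AGGTCA, 12.4% a TATA box, 6.02% an E-box and 2.44% GAGGAAGT. These matches describe letters only, and an empty window says nothing of more distant sequence.

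Lipc was low in spleens of PBS-treated mice and was higher after both OVA treatments. Its level was 2.34, 2.60 and 2.44 CPM in the 3 PBS libraries, 11.7, 8.09 and 11.1 CPM after soluble OVA, and 7.96, 6.92 and 8.03 CPM after OVA NPs. The ranges of these groups did not overlap, and the soluble OVA libraries stood highest. The log2 fold change against PBS was 2.07 ± 0.18 (SE, n = 3 per group) for soluble OVA and 1.64 ± 0.18 for OVA NPs, and OVA NPs against soluble OVA gave −0.43 ± 0.16. Lipc in Peyer's patches was 31.0, 26.3 and 21.4 CPM with PBS, 46.1, 52.7 and 46.5 CPM with soluble OVA, and 16.2, 23.4 and 25.4 CPM with OVA NPs. There the soluble OVA libraries lay above all others (log2 fold change against PBS 0.87 ± 0.13), whereas the OVA NP and PBS ranges overlapped (−0.27 ± 0.18). Every Peyer's patch library exceeded every spleen library. Lipc is best known from liver, and the hepatocyte markers examined (Alb, Ttr, Apoa2, Serpina1a and Fgb) summed to at most 0.0770 CPM in spleen and at most 1.37 CPM in Peyer's patches.

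Osbpl3 gave the pattern closest to that of Lipc. In spleen it measured 1.86, 1.38 and 1.94 CPM with PBS, 15.6, 15 and 15.2 CPM with soluble OVA, and 8.82, 6.92 and 6.85 CPM with OVA NPs. The spleen groups were well apart, with the lowest soluble OVA library above the highest OVA NP library. The log2 fold change against PBS was 3.14 ± 0.16 with soluble OVA and 2.13 ± 0.21 with OVA NPs, the largest differences of any of the 6 genes between treatments, and OVA NPs against soluble OVA gave −1.02 ± 0.14. Its Peyer's patch levels were 53.1, 50.3 and 49.6 CPM with PBS, 84.8, 99.2 and 99.5 CPM with soluble OVA, and 39.6, 52.7 and 51.2 CPM with OVA NPs. As for Lipc, soluble OVA alone was set apart from PBS (0.88 ± 0.09), and OVA NPs overlapped it (−0.08 ± 0.10). The change with OVA NPs in Peyer's patches minus that in spleen was −2.19 ± 0.20 for Osbpl3 and −1.89 ± 0.24 for Lipc on the log2 scale.

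**Figure D1:**
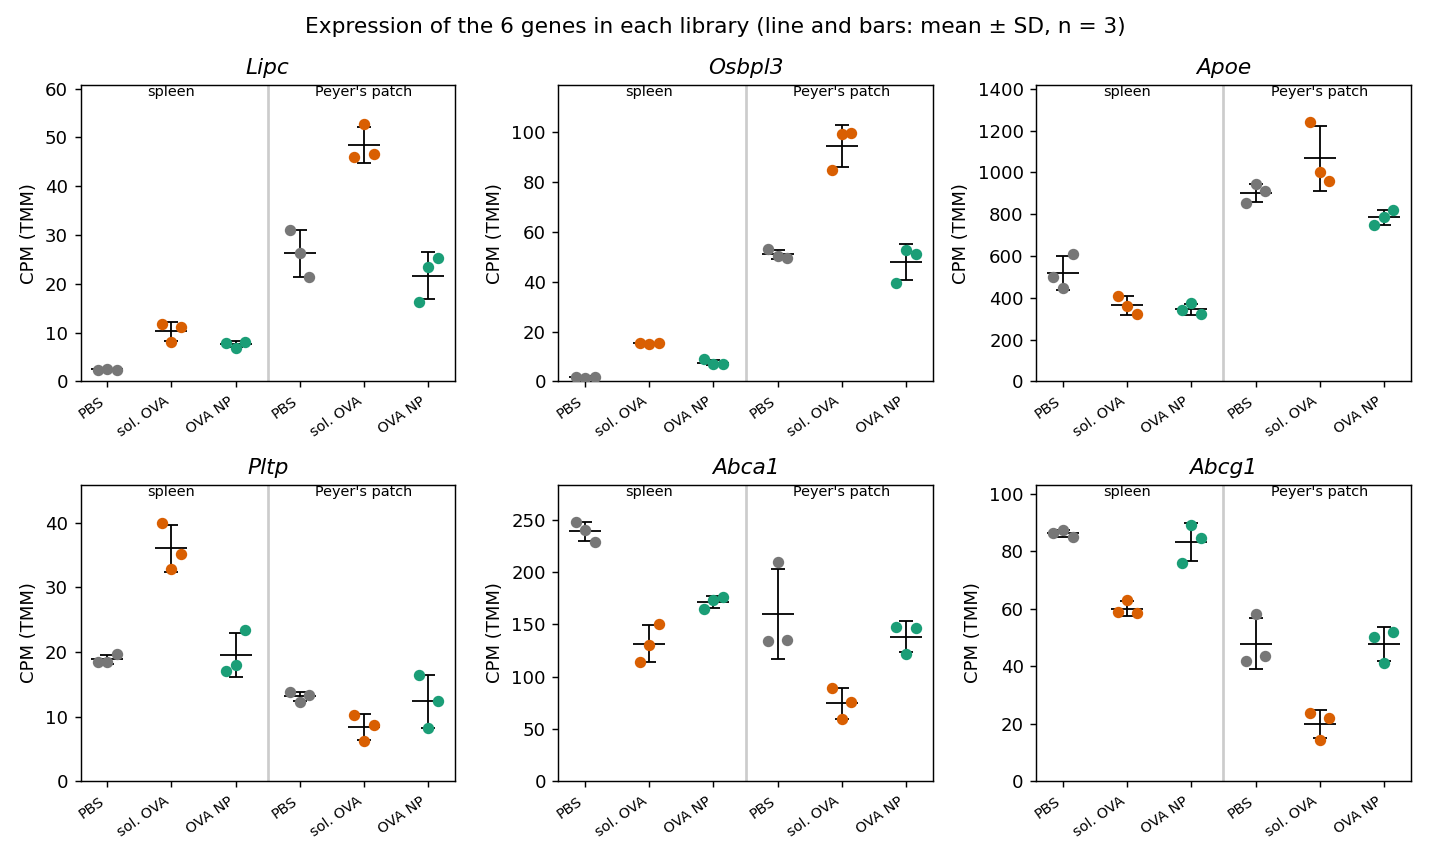
Levels of the 6 genes in each library, as TMM-scaled CPM on a linear axis starting at 0, for the 3 treatments in spleen (left of each panel) and Peyer's patches (right). Points are libraries and black lines with bars are means ± SD (n = 3). Lipc and Osbpl3 stood highest in Peyer's patches of soluble OVA–treated mice, where Abca1 and Abcg1 stood lowest.

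The groups in which Lipc and Osbpl3 were higher were also those with higher germinal center markers. In spleen, 7 of 8 germinal center markers were called higher with OVA NPs (8.60% of all genes) and 8 of 8 with soluble OVA (10.5%), with median log2 fold changes of 2.59 and 3.00, and the corresponding count in Peyer's patches was 7 of 8 with soluble OVA (13.5% of all genes, median 0.67) and 0 of 8 with OVA NPs. The part of these cells in the Lipc and Osbpl3 levels was not tested.

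Apoe, the highest of the 6 genes per kilobase of exon in PBS-treated mice, gave smaller fold changes against PBS than Lipc or Osbpl3 did in spleen and, with soluble OVA, in Peyer's patches. With OVA NPs in Peyer's patches its value was larger in size than that of Osbpl3, and it was the only one of the 6 genes whose groups did not overlap. In spleen it was 499, 448 and 608 CPM with PBS, 411, 360.2 and 322 CPM with soluble OVA, and 342, 374 and 320.4 CPM with OVA NPs. All PBS libraries lay above the OVA-treated ones, which overlapped each other. Against PBS, log2 fold changes were −0.51 ± 0.12 for soluble OVA and −0.58 ± 0.12 for OVA NPs. Among Peyer's patches the soluble OVA libraries were the highest, at 1243, 1001 and 957 CPM against 855, 942 and 909 CPM with PBS and 748, 786 and 821 CPM with OVA NPs. None of these 3 ranges overlapped, although the distances were small: 0.23 ± 0.10 for soluble OVA and −0.19 ± 0.07 for OVA NPs, both against PBS. Soluble OVA was thus accompanied by a lower Apoe level in spleen and a higher one in Peyer's patches. Apoe is also a macrophage gene. The 14 macrophage markers in spleen summed to 36.8 to 67.0 CPM with PBS. They summed there to 20.6 to 31.5 CPM with soluble OVA and 22.9 to 40.1 CPM with OVA NPs. Peyer's patch sums were 67.7 to 96.0 CPM with PBS, 59.6 to 72.0 CPM with soluble OVA and 78.6 to 115 CPM with OVA NPs. Vsig4 was at 0 in 15 of the 18 libraries and C1qa in 7, whereas Csf1r, Adgre1 and Cd68 were at 0 in none. The markers differed in direction between tissues. In PBS-treated mice C1qa averaged 0 CPM in spleen and 13.4 CPM in Peyer's patches, and Adgre1 averaged 5.92 and 3.66 CPM. The part of macrophages in the Apoe level was not tested.

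Pltp showed a difference with soluble OVA that ran in opposite directions in the 2 tissues, and none of that size with OVA NPs. In spleen it was 18.4, 18.5 and 19.6 CPM with PBS, 40, 32.9 and 35.1 CPM with soluble OVA, and 17.1, 18 and 23.4 CPM with OVA NPs. The soluble OVA libraries were separate from both other groups, which overlapped. Fitted log2 fold changes were 0.94 ± 0.09 for soluble OVA against PBS, 0.06 ± 0.11 for OVA NPs against PBS and −0.87 ± 0.12 for OVA NPs against soluble OVA. Pltp in Peyer's patches was lower with soluble OVA (10.2, 6.27 and 8.77 CPM) than with PBS (13.7, 12.3 and 13.3 CPM), a log2 fold change of −0.66 ± 0.19. The OVA NP libraries spread from 8.25 to 16.5 CPM and overlapped both groups.

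Abca1 and Abcg1, the cholesterol exporters, were lower wherever mice had received soluble OVA. In spleen Abca1 was 248, 240.3 and 229 CPM with PBS, 114, 131 and 149.9 CPM with soluble OVA, and 165, 173 and 176 CPM with OVA NPs. These 3 ranges did not overlap. Against PBS, the log2 fold change was −0.86 ± 0.09 for soluble OVA and −0.47 ± 0.05 for OVA NPs. Abcg1 in spleen was 86.3, 87.5 and 84.9 CPM with PBS, 58.8, 63.0 and 58.4 CPM with soluble OVA, and 76.0, 89.3 and 84.5 CPM with OVA NPs. Here the OVA NP libraries lay around those of PBS (−0.04 ± 0.06), and soluble OVA alone was lower (−0.52 ± 0.06). Whether the 2 transporters differed from each other in this comparison was not tested.

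Both exporters in Peyer's patches were lowest with soluble OVA. Abca1 was 88.7, 59.0 and 75.3 CPM with soluble OVA against 134, 209.8 and 135 CPM with PBS, and 147, 121 and 146 CPM with OVA NPs. The second PBS library, also the shallowest of the series at 14177253 counts, lay well above the others of its group. The log2 fold change for soluble OVA against PBS was −1.11 ± 0.23, and it lay between −1.23 and −0.83 when each library was left out in turn. Abcg1 was 23.6, 14.3 and 21.9 CPM with soluble OVA, 41.9, 58.1 and 43.6 CPM with PBS and 50.1, 41.0 and 51.9 CPM with OVA NPs. Soluble OVA was again apart from both other groups (−1.27 ± 0.21 against PBS), which overlapped (0.01 ± 0.14).

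**Figure D2:**
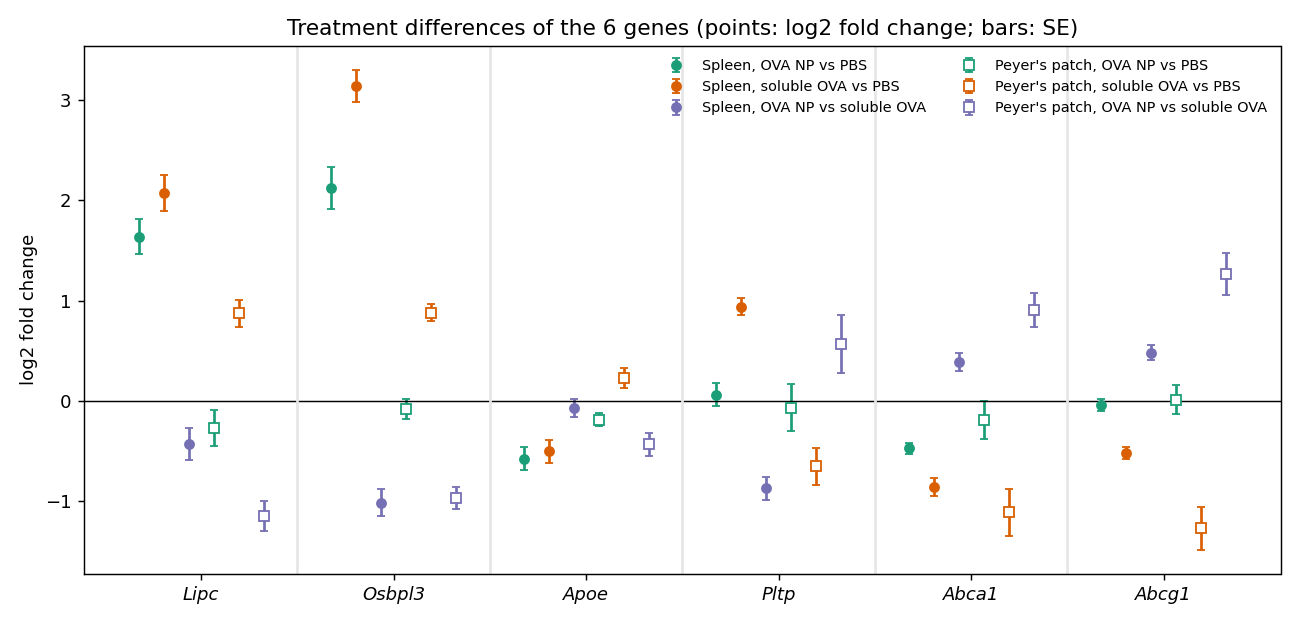
Log2 fold changes of the 6 genes between treatments, from edgeR, in spleen (filled circles) and Peyer's patches (open squares). Bars are SE (n = 3 per group). Soluble OVA against PBS gave positive values for Lipc and Osbpl3 and negative values for Abca1 and Abcg1 in both tissues, while OVA NPs against PBS in Peyer's patches gave values between −0.27 and 0.01.

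A gene was called when the adjusted p of edgeR's quasi-likelihood test over all genes was under 0.05 and the log2 fold change exceeded 0.25 in size. In spleen 4 of the 6 genes were called with OVA NPs against PBS (15% of all 14200 genes tested), 6 of 6 with soluble OVA against PBS (17.2% of 14128), and 3 of 6 between OVA NPs and soluble OVA (0.238% of 13840), namely Pltp and Osbpl3 lower and Abcg1 higher with OVA NPs. Counts in Peyer's patches were 0 of 6 with OVA NPs against PBS (0% of 15798), 5 of 6 with soluble OVA against PBS (27.4% of 15792) and 5 of 6 between OVA NPs and soluble OVA (30.1% of 15599). By groups that did not overlap, the counts were 4 (37.2% of all genes), 6 (37.8%) and 5 (14.2%) of 6 in spleen and 1 (17.3%), 6 (45.1%) and 5 (48.4%) of 6 in Peyer's patches, in the same order of comparisons. The interaction of tissue and treatment passed for 2 of 6 genes with OVA NPs (4.42% of 16619) and 4 of 6 with soluble OVA (6.84% of 16541). Since the genes were picked for such differences, these counts carry no weight beyond description, and the comparisons within a tissue share libraries. For OVA NPs against PBS in Peyer's patches edgeR called no gene at all, while 1573 of 15798 genes had an unadjusted p under 0.05 and DESeq2 called 149, none of them among the 6.

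The genes were chosen for differences between treatments, and differences between tissues were tested. Both kinds of difference draw on the same libraries, so the level of a group enters both. The p-values below are therefore not independent of the choice. Lipc, Osbpl3 and Apoe were higher in Peyer's patch libraries than in spleen libraries under every treatment, and Abcg1 was lower under every treatment. In PBS-treated mice all 6 genes were called (45.6% of 15463 genes tested), 3 of them higher (25.5% of all genes) and 3 lower (20.1%). The 2 tissues did not overlap for any of the 6 genes under any treatment, against 60.2% of all genes with PBS, 62.7% with soluble OVA and 54.6% with OVA NPs. Osbpl3 differed most, with a log2 fold change of 4.90 ± 0.13 (SE; adjusted p = 6.87e-08), followed by Lipc at 3.43 ± 0.16 (adjusted p = 6.21e-07) and Apoe at 0.82 ± 0.10 (adjusted p = 0.000201). Pltp (−0.50 ± 0.10, adjusted p = 0.00283), Abca1 (−0.57 ± 0.16, adjusted p = 0.0263) and Abcg1 (−0.84 ± 0.10, adjusted p = 0.000139) were lower in Peyer's patches.

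In soluble OVA–treated mice all 6 were called in the same directions (51.1% of 15415 genes). The gap for Pltp was widest here, at −2.10 ± 0.17 (adjusted p = 1.13e-05), and so was that for Abcg1, at −1.59 ± 0.17 (adjusted p = 0.000173), and for Apoe, at 1.55 ± 0.12 (adjusted p = 8.75e-06). Osbpl3 (2.63 ± 0.09, adjusted p = 1.85e-07), Lipc (2.22 ± 0.14, adjusted p = 1.45e-06) and Abca1 (−0.82 ± 0.16, adjusted p = 0.00456) completed the set. In OVA NP–treated mice 5 of 6 were called (37.1% of 15466 genes): Osbpl3 (2.72 ± 0.14, adjusted p = 1.91e-06), Lipc (1.55 ± 0.17, adjusted p = 0.000100), Apoe (1.23 ± 0.07, adjusted p = 2.96e-06), Abcg1 (−0.75 ± 0.10, adjusted p = 0.000352) and Abca1 (−0.26 ± 0.08, adjusted p = 0.0324). Pltp did not pass there, at −0.61 ± 0.25 (adjusted p = 0.0902), and passed in 2 of 10 alternative fits. These were DESeq2 (−0.59, adjusted p = 0.0465) and edgeR without Peyer's patch OVA NP replicate 1 (−0.90, adjusted p = 0.00423).

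The calls for Abca1 were the least secure of the tissue comparisons. In PBS-treated mice leaving out Peyer's patch replicate 1 or 3, or any spleen replicate, ended the call, with adjusted p between 0.0588 and 0.0760, and so did fitting without a filter on low counts (adjusted p = 0.103). In OVA NP–treated mice it held in 3 of 10 alternative fits. Lipc, Osbpl3, Apoe and Abcg1 kept their calls in all 10 alternatives in each of the 3 comparisons.

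**Figure D3:**
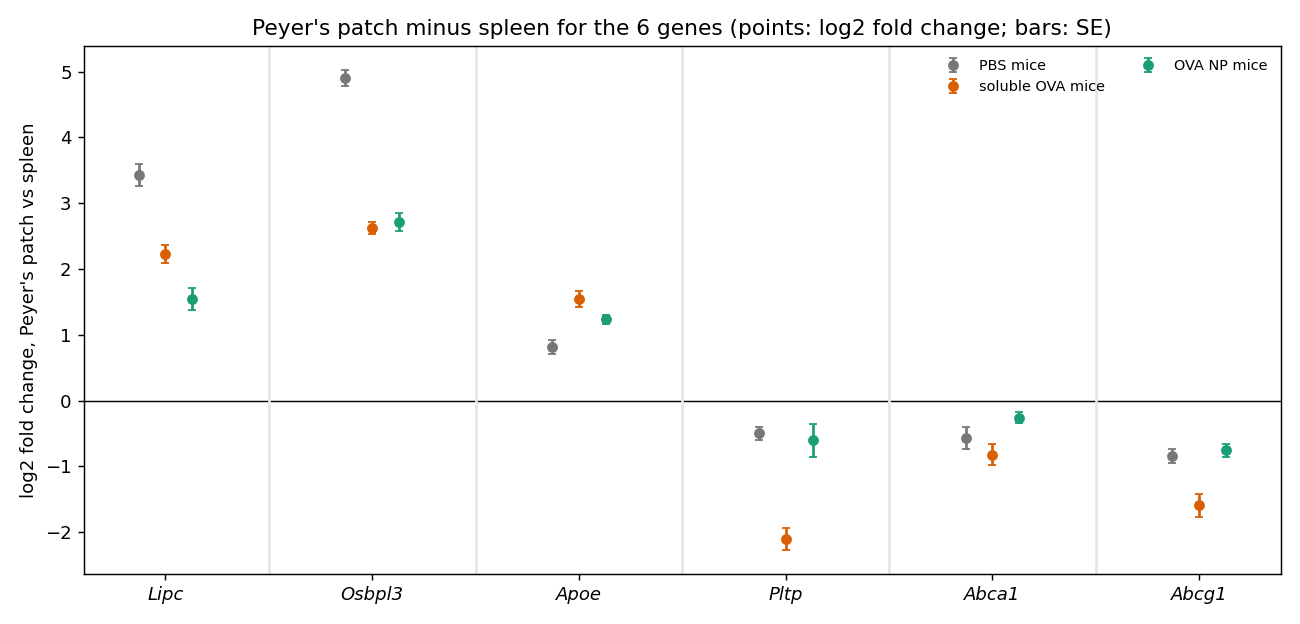
Peyer's patch minus spleen log2 fold changes of the 6 genes in mice of each treatment, from edgeR, with bars for SE (n = 3 per group). Osbpl3, Lipc and Apoe lay above 0 and Pltp, Abca1 and Abcg1 below it under all 3 treatments, and the Osbpl3 value was largest in PBS-treated mice at 4.90.

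Along with the tissue differences, all 8 germinal center markers were called higher in Peyer's patches in each of the 3 comparisons, 5 of 5 epithelial markers were called higher in each, and 4 or 5 of 5 marginal zone B cell markers were called lower. With PBS, soluble OVA and OVA NPs, 6 of 10, 6 of 10 and 6 of 11 macrophage markers were called higher and 2, 2 and 0 lower. Of dendritic cell markers 3, 4 and 5 of 6 were called higher and 0 lower. Of stromal and endothelial markers 5 of 7, 4 of 6 and 5 of 6 were called higher and 1 lower in each. Of monocyte and neutrophil markers 8 of 10, 4 of 9 and 1 of 9 were called lower and 1 higher in each. B cell markers were called lower for 5 of 6 in each comparison and higher for 0. T cell markers were called higher for 3 of 3, 2 of 4 and 6 of 6, and lower for 0. Plasma cell markers were called higher for 4, 3 and 3 of 5, and lower for 0. Of all genes, 45.6%, 51.1% and 37.1% were called in either direction with PBS, soluble OVA and OVA NPs. Krt20 and Vil1, which mark gut epithelium, averaged 31.4 and 99.2 CPM in Peyer's patches of PBS-treated mice and at most 0.0415 CPM in any spleen group. The part of these cells in the tissue differences was not tested.

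Per kilobase of merged exon, the 6 genes had a different order in the 2 tissues. In spleens of PBS-treated mice Apoe led with 242 ± 38.3 CPM per kb (SD, n = 3), followed by Abca1 (23.1 ± 0.896), Abcg1 (11.8 ± 0.174), Pltp (7.36 ± 0.262), Lipc (1.15 ± 0.0623) and Osbpl3 (0.192 ± 0.0336). In Peyer's patches of PBS-treated mice Apoe was again first at 422 ± 20.6 CPM per kb, Abca1 was at 15.4 ± 4.18 and Lipc at 12.2 ± 2.24. Abcg1 (6.56 ± 1.22), Osbpl3 (5.65 ± 0.206) and Pltp (5.12 ± 0.289) were close together there. After soluble OVA, Lipc (22.5 ± 1.73) and Osbpl3 (10.5 ± 0.935) stood above Abca1 (7.17 ± 1.44) in Peyer's patches.

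Within tissues, the levels of some of the 6 genes were linked. Over the 18 libraries, each tissue's mean was removed from log2 CPM. Lipc and Osbpl3 then correlated at r = 0.95 and Abca1 and Abcg1 at r = 0.92, while Lipc against Abca1 gave r = −0.79. Apoe against Pltp gave r = −0.36. Apoe and Lipc correlated negatively in spleen (r = −0.83, 9 libraries) and positively in Peyer's patches (r = 0.77, 9 libraries), and Pltp and Abcg1 did so as well (−0.92 and 0.80). These are descriptions over libraries that share 3 treatments. Among 9359 other genes at 5 CPM or more in both tissues, the patterns closest to Lipc were those of Tcf19, Kif2c and Birc5 (r = 0.98 each), and those closest to Osbpl3 were Rassf6 (0.96), Eaf2 (0.96) and Cep55 (0.96). Abca1 was closest to Ugcg (0.96) and Atp10d (0.95), and Abcg1 to Gbp4, Gdf11 and Esyt1 (0.96 each). For Apoe the closest were Xkrx (0.91), Jhy (0.87) and Mcoln2 (0.87), and for Pltp they were Tbc1d17 (0.90), Il4i1 (0.86) and Zcchc18 (0.80).

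The other genes of cholesterol handling were taken from a list of 92 in 7 groups. Among them, the 24 genes of SREBP-2 control and sterol synthesis stood out by count in spleen. With OVA NPs against PBS 12 of 24 were called higher and 0 lower (8.60% of all genes were called higher and 6.35% lower), and with soluble OVA 18 of 24 were called higher and 0 lower (10.5% and 6.72% of all genes). The medians of the 24 log2 fold changes were 0.33 and 0.45, against 0.00 and −0.01 over all genes tested. The germinal center marker sums were higher in the same comparisons, at means of 135 CPM with PBS, 374 CPM with OVA NPs and 454 CPM with soluble OVA, and the part of those cells in this difference was not tested. The isomerase Idi1 rose by 0.84 ± 0.09 with OVA NPs (adjusted p = 2.08e-05) and by 1.12 ± 0.08 with soluble OVA (adjusted p = 3.98e-07), and squalene epoxidase, Sqle, rose by 0.78 ± 0.13 (adjusted p = 0.00209) and 1.03 ± 0.11 (adjusted p = 2.02e-05). The level of Srebf2 itself was not called with OVA NPs (−0.05 ± 0.09, adjusted p = 0.744) or soluble OVA (0.13 ± 0.06, adjusted p = 0.166).

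The same 24 genes did not move in this way in Peyer's patches. With soluble OVA 2, Acat2 and Pmvk, were called higher (13.5% of all genes) and 6 lower (13.9%), with a median log2 fold change of 0.03, and Srebf2 was among those that fell (−0.25 ± 0.07, adjusted p = 0.0319). With OVA NPs 0 were called, and 19 of the 24 values were negative with a median of −0.20. OVA NPs against soluble OVA gave 10 of 24 lower and 0 higher there (16.3% of all genes were called lower), among them Sqle (−0.60 ± 0.08, adjusted p = 0.000866). These groups also differed in germinal center marker sums (834 to 1283 CPM with OVA NPs, 2027 to 2088 CPM with soluble OVA) and in mitochondrial share (9.08% to 9.80% and 4.97% to 6.02%), whose part was not tested. The difference between the tissues was tested as an interaction. The change in Peyer's patches minus that in spleen was called negative for 8 of 24 genes with OVA NPs (3.54% of all genes) and for 10 of 24 with soluble OVA (5.07%), and positive for none, at medians of −0.47 and −0.44. In PBS-treated mice 20 of the 24 were already higher in Peyer's patches (25.5% of all genes) and 1, Scap, was lower. Idi1, at 24.3 ± 0.372 CPM in spleen and 82.2 ± 11.7 CPM in Peyer's patches of PBS-treated mice (SD, n = 3), was an example, with a log2 fold change of 1.78 ± 0.10 (adjusted p = 9.89e-07). Epithelial and germinal center marker sums were also higher in Peyer's patches, as given above, and the part of those cells in this tissue difference was not tested.

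**Figure D4:**
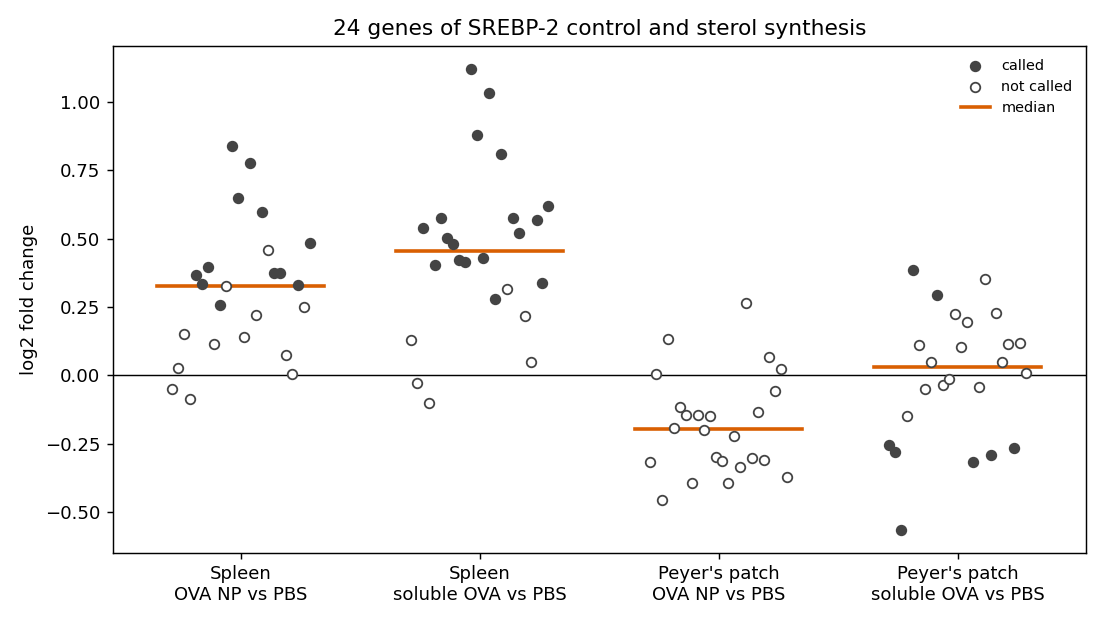
Log2 fold changes against PBS of 24 genes of SREBP-2 control and sterol synthesis, 1 point per gene, filled where called. Orange lines are medians. Points lay mainly above 0 in spleen (medians 0.33 and 0.45) and around or below it in Peyer's patches (medians −0.20 and 0.03).

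Of 9 tested genes of lipoprotein uptake receptors and their regulators, 3 (Lrp1, Cd36 and Apobr) were called lower with soluble OVA in spleen (6.72% of all genes), where Lrp8, a lipoprotein receptor gene, rose (0.70 ± 0.19, adjusted p = 0.0185). Lrp1, a large scavenging receptor, fell there by 1.98 ± 0.38 on the log2 scale (adjusted p = 0.0148). Markers of myeloid cells also differed between these groups. The 11 monocyte and neutrophil markers summed to 140 to 335 CPM with PBS, 63.4 to 143 CPM with soluble OVA and 76.8 to 278 CPM with OVA NPs in spleen (means 230 CPM, 103 CPM and 195 CPM), so the ranges overlapped. Of the 10 tested, 5 were called lower against PBS with each treatment (6.72% of all genes with soluble OVA and 6.35% with OVA NPs). With each treatment 0 were called higher (10.5% and 8.60% of all genes, in the same order). Ly6c2, of that list, averaged 14.6 CPM with PBS, 16.4 CPM with soluble OVA and 23.9 CPM with OVA NPs. Of 6 tested macrophage markers, 2 were called lower (6.72% of all genes) and 0 higher (10.5%) with soluble OVA. Csf1r averaged 23.2 CPM with PBS and 7.50 CPM with soluble OVA, and Hmox1 averaged 1.36 and 1.85 CPM. The part of myeloid cells in the levels of Lrp1, Cd36 and Apobr was not tested.

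The LXRs, which act upstream of Abca1 and Abcg1, are encoded by Nr1h2 and Nr1h3. In spleen Nr1h2 measured 127 ± 1.54 CPM with PBS, 116 ± 5.37 CPM with soluble OVA and 113 ± 6.80 CPM with OVA NPs, and was not called in either comparison (adjusted p = 0.130 and 0.0540). In Peyer's patches it was called lower with soluble OVA, by −0.27 ± 0.07 (adjusted p = 0.0149). Nr1h3 was near the detection floor in spleen, at 0.187 to 0.823 CPM over all 9 libraries, and ran from 3.08 to 6.62 CPM in Peyer's patches. This group held the LXR genes, the partner receptor genes Rxra and Rxrb, and further LXR targets. In spleen 2 of 9 tested (Rxra and Mylip) were called lower with soluble OVA (6.72% of all genes). With OVA NPs Scd2 was called higher and Mylip lower, out of 10 (8.60% and 6.35% of all genes). Of the 10 tested in Peyer's patches, 4 (Nr1h2, Mylip, Scd1 and Arl4c) were called lower with soluble OVA (13.9% of all genes) and 0 higher. Arl4c, a small GTPase gene of this group, fell by 1.32 ± 0.26 (adjusted p = 0.00523). Srebf1, the lipogenic SREBP gene, was not called between treatments in either tissue, with log2 fold changes between −0.21 and 0.13.

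The intracellular sterol transfer genes include relatives of Osbpl3, and their counts are given beside the shares of all genes. With soluble OVA in spleen 0 of 18 were called higher (10.5% of all genes) and 3 (Npc1, Osbpl5 and Gramd1a) lower (6.72%), and Osbpl5 fell with OVA NPs (−0.39 ± 0.09, adjusted p = 0.00759). In Peyer's patches 2 of 19 were called higher (13.5% of all genes) and 6 lower (13.9%) with soluble OVA, and the genes that rose were Vapa and Osbpl9 (0.56 ± 0.07 for Osbpl9, adjusted p = 0.000456). Between tissues, Osbpl5 was lower in Peyer's patches of PBS-treated mice (−1.37 ± 0.09, adjusted p = 2.42e-06), where Osbpl3 was higher. Cyp27a1, the sterol 27-hydroxylase that makes an LXR-activating oxysterol, fell in spleen with both OVA NPs (−0.88 ± 0.15, adjusted p = 0.000714) and soluble OVA (−0.86 ± 0.13, adjusted p = 0.000423). The myeloid marker values given above bear on the same groups, and the part of those cells was not tested.

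The other lipase and lipoprotein remodelling genes were counted in the same way. Of 8 tested in spleen 0 were called with either treatment, against 15% and 17.2% of all genes. In Peyer's patches with soluble OVA 2 of 9 were called (22.2%, against 27.4% of all genes), both lower. Lpl, lipoprotein lipase, fell there (−1.64 ± 0.42, adjusted p = 0.0180) at a mean of 2.65 CPM. The other was Lmf1, a factor needed for lipase maturation. Apolipoprotein genes of the gut, Apoa1 and Apob, averaged 181 and 103 CPM in Peyer's patches of PBS-treated mice and were at most 0.115 CPM in any spleen library. The sterol transporter gene Abcg5, which exports plant sterols from enterocytes, averaged 22.0 CPM there and was at 0 in all 9 spleen libraries. These genes appeared together with the epithelial markers named above, and the part of epithelial cells in their levels was not tested. For OVA NPs against soluble OVA in spleen edgeR called 0 of 77 list genes (16 had an unadjusted p under 0.05), and DESeq2 called 3.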

How the data were processed

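Poly(A) RNA libraries of enriched B cells were sequenced by the authors. The deposited values are expected counts per gene, estimated by the authors with RSEM 1.3.3 after trimming with Cutadapt 2.3 and alignment to GRCm38 with STAR 2.7.8a, per the submitters' processing notes and the methods. All values were already whole numbers. Whether counting used strand is not given in the sources used here.

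From these, differences were fitted in R 4.3.3 with edgeR 4.0.16 (filterByExpr with a minimum count of 10, TMM scaling, robust quasi-likelihood F test, Benjamini-Hochberg adjustment over all genes tested). Each comparison used its own 2 groups of 3 libraries, and each interaction of tissue and treatment used 4 groups. A call needed an adjusted p under 0.05 and, except for interactions, a log2 fold change over 0.25 in size. Levels are CPM on TMM-scaled totals of the 18 libraries, log2 CPM used a prior count of 2, and SE is the fold change divided by the square root of F. Library totals ran from 14177253 to 30052297 counts. The scripts were tested on simulated data. Merged exon lengths came from GENCODE M21 and promoters from RefSeq GRCm38.p6.

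The genes, gene lists and markers were chosen with earlier results of these data known. Named list genes were, per comparison, up to 3 called genes in each direction with the largest fold change and a mean of at least 1 CPM, those called in all 3 spleen or all 3 tissue comparisons, and a fixed few that include Nr1h2, Nr1h3, Srebf1 and Srebf2. From these the text gives a selection, and some named genes are not reported here. Alternatives were DESeq2 1.42.0, DESeq2 size factors, no count filter, a replicate block and leaving out each library. Replicate numbers were shared between groups but did not pair the libraries.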

Additional observations from a re-analysis of the deposited data

Results flagged for a closer look

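Some cholesterol genes responded to treatment differently in the 2 tissues by the test of the interaction, in which the value is the log2 change in Peyer's patches minus that in spleen (edgeR, adjusted over all genes). With OVA NPs the values were −1.16 ± 0.18 for Sqle (adjusted p = 0.00471), −0.98 ± 0.16 for Idi1 (adjusted p = 0.00552) and −0.94 ± 0.15 for Fdps (adjusted p = 0.00575), and they were 1.01 ± 0.23 for Cyp27a1 (adjusted p = 0.0246) and 0.49 ± 0.12 for the sterol carrier gene Gramd1b (adjusted p = 0.0311). With soluble OVA they were −1.13 ± 0.14 for Idi1 (adjusted p = 0.000244) and −1.10 ± 0.13 for Insig1 (adjusted p = 0.000169). In the same comparison they were 1.87 ± 0.52 for Nr1h3 (adjusted p = 0.0437), which was near the detection floor in spleen, 0.85 ± 0.20 for Cyp27a1 (adjusted p = 0.0181) and 0.45 ± 0.09 for Osbpl9 (adjusted p = 0.0109).

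For Apoe and Pltp every soluble OVA library lay on opposite sides of the PBS libraries in the 2 tissues. The log2 fold changes were −0.51 in spleen and 0.23 in Peyer's patches for Apoe, and 0.94 in spleen and −0.66 in Peyer's patches for Pltp. The interaction fit gave 0.74 ± 0.17 for Apoe and −1.59 ± 0.20 for Pltp, and both are among the 4 of 6 genes that passed with soluble OVA. Because these genes were picked for their treatment shifts, this is a description and no p is given.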

How the results depend on the processing

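With 3 libraries per group and no record tying replicates to mice, errors cover the spread between these libraries only. The number of cholesterol list genes called moved by over 1.5 times in few settings. For OVA NPs against soluble OVA in spleen it was 0, but 3 with DESeq2 and 3 with no count filter (all genes: 33, 113 and 230), and for OVA NPs against PBS in Peyer's patches it was 0, but 1 with DESeq2 (all genes: 0 and 149, and 146 with no count filter). For soluble OVA against PBS in Peyer's patches it was 29, and 14 to 25 when a library was left out: 17 without soluble OVA replicate 2, 14 without replicate 3, 17 without PBS replicate 1 and 18 without PBS replicate 2. For the interaction of tissue and OVA NPs it was 10, and 5 to 11 when a library was left out: 5 without spleen OVA NP replicate 1, and 6 without spleen PBS replicate 1 or 3. Calls over all genes in that interaction numbered 734 (19.8% positive), against 1290 with DESeq2 (32.2% positive), 1005 with no count filter (34.4% positive) and 429 with the replicate block, and those in the interaction with soluble OVA numbered 1131 and, with DESeq2, 1817. Abca1 in that interaction with OVA NPs went from 0.30 to 0.54 without Peyer's patch PBS replicate 2. The causes were not tested.

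Same-numbered libraries did not deviate together (no comparison had all 3 correlations over 0.1, and at most 3 of 6 libraries correlated best with their own number). With the replicate block, list calls for soluble OVA against PBS in Peyer's patches numbered 18, and 4 of the 6 genes were called there, 4 between OVA NPs and soluble OVA in Peyer's patches and 3 with OVA NPs against PBS in spleen. Over all alternatives, 111 of the list counts stayed within 1.5 times and 11 did not, and among values of single genes 2251 kept their side of the threshold or moved by less than the replicate spread, 141 lost a call, 2 gained one and 2 moved further, with none reversed.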
